A study of Homo sapiens with 48 samples.

Results

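MAGEF1, FEN1, PRCC, ALDH1B1 and GEMIN6 are 5 of the 19923 protein-coding genes counted in these libraries, and 5 of the 14314 that passed the filter on low counts in both cell lines. They were picked from earlier results of the same data because their mRNA fell less over 6 h of actinomycin D in cells treated with STM2457 than in cells given DMSO. The values of that contrast are therefore given as a description, without a test. The cells were Kelly and NGP, human neuroblastoma lines with amplified MYCN whose genotype is labelled WT. Each line had received 8 µM STM2457, an inhibitor of the RNA methyltransferase METTL3, or the solvent DMSO, and was collected after 3 or 6 days. Actinomycin D at 10 µg/ml was then applied for 0, 3 or 6 h before RNA was taken up and poly(A) RNA was sequenced. This gave 24 groups of 2 libraries, 48 in all. Nothing in the labels states that paired replicates came from different cultures, so the p-values measure the spread between these libraries, which may be technical.

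METTL3 is the catalytic subunit of the nuclear complex that writes N6-methyladenosine (m6A) into mRNA. The mark is known to recruit reader proteins, some of which shorten the life of a transcript, and it is found mostly near stop codons and in long internal exons. Actinomycin D stops RNA polymerases, so the level that remains after some hours reports how fast the existing mRNA is lost. Loss of METTL3 activity is known to change the stability of many mRNAs in cultured cells. No methylation was measured in these libraries.

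The preferred m6A sequence contains GGACT, written here in DNA letters, and the members differ in where it lies. It was searched on the sense strand of the canonical GENCODE 44 transcript, since m6A is read from the RNA, and this motif overlaps no other motif searched. The match nearest to the stop codon is shown for each member because m6A is mostly found near it. Only matches whose flanking bases lie in the same exon were considered. The distance from the end of the stop codon, negative upstream, was -1140 bases in MAGEF1, -944 in PRCC and -601 in FEN1. These matches thus do not lie near it. The distance was -128 bases in GEMIN6 and 325 in ALDH1B1. GGACT is in capitals, flanked by 10 bases on each side, 5′ to 3′ on the strand of the transcript, with GRCh38 coordinates.
MAGEF1, chr3:184712026-184712050, minus strand, 5′ UTR: gcgcgggcgcGGACTgaggctgcgc
FEN1, chr11:61795891-61795915, plus strand, coding sequence: ccgaggacatGGACTgcctcacctt
PRCC, chr1:156786611-156786635, plus strand, coding sequence: tccagtgaggGGACTggtttgtctg
ALDH1B1, chr9:38397615-38397639, plus strand, 3′ UTR: gctgatccaaGGACTttcccatggg
GEMIN6, chr2:38781752-38781776, plus strand, coding sequence: gacgctccaaGGACTctctgtgtgg

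The canonical transcripts held 1 GGACT in MAGEF1, 1 in FEN1, 4 in PRCC, 2 in ALDH1B1 and 3 in GEMIN6. Of 13973 genes with a matched transcript, 91.6% held at least 1, with a median of 3 per transcript. Per kilobase, PRCC had 1.93 and the other members had 0.496 to 0.810, against a median of 0.933 over all genes. Thus 4 of the 5 members lay below the median density of this motif, and a match says nothing of whether the adenosine was methylated.

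By exon structure the members fell into compact and split genes. MAGEF1 (chr3:184710364-184712064, minus strand) is a single exon of 1701 bases, and 2.77% of the tested genes had as few exons. FEN1 (chr11:61792911-61797238, plus strand) had 2 merged exons and 86.4% of its 2198 exon bases in the longer one. ALDH1B1 (chr9:38392702-38398661, plus strand) had 3 merged exons, with 93.7% of its 3117 exon bases in the last. These transcripts thus consist almost wholly of 1 exon. GEMIN6 (chr2:38751534-38785002, plus strand) had 6 merged exons, the last of 3486 bases making up 79.9% of 4363. PRCC (chr1:156750610-156800815, plus strand) was the exception, with 9 merged exons and 37.6% of its 4071 bases in the longest. Over the 14314 genes the medians were 11 merged exons and 44.5% in the longest. The coding sequence of MAGEF1, FEN1 and ALDH1B1 lies within 1 exon of the canonical transcript, as it does in 6.32% of matched genes. FEN1 shared 49 exon bases (2.23%) with FADS2 on the same strand, and the other members shared none with another counted gene. FEN1 also has a processed pseudogene, FEN1P1 on chromosome 1, and the handling of reads that map to both is not given in the sources used here.

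**Figure D1:**
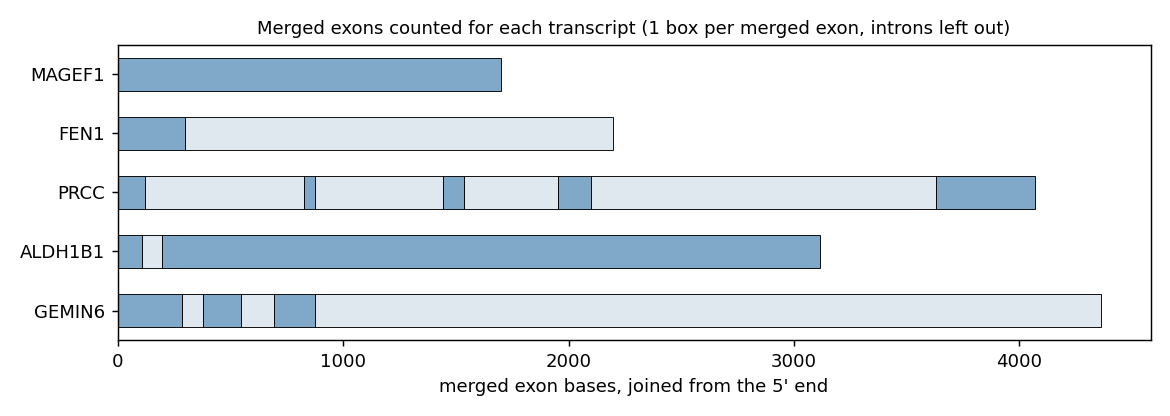
Merged exons of the 5 members, drawn to scale in bases from the 5′ end, 1 box per merged exon and introns left out. MAGEF1, FEN1, ALDH1B1 and GEMIN6 are mostly 1 long box (79.9% or more of their bases), and PRCC is split into 9.

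The libraries held 11139550 to 21942238 fragments in genes, and the members had between 57 (GEMIN6, Kelly) and 6184 (PRCC, NGP) fragments in a library. Levels below are CPM, counts scaled to the TMM-adjusted library size, so a loss shared by all genes does not show and each change is relative to the typical gene. The ERCC spike-ins, synthetic RNAs added to the samples, gave another scale. The neuroblastoma genes HAND2 and GATA3 had median levels of 1067 and 337 CPM in Kelly and 1327 and 418 CPM in NGP before actinomycin D. Of the markers of other cells, those of blood (PTPRC, CD14) had a median of 0 CPM in both lines, while the collagen gene COL1A1 had medians of 14.3 and 55.9 CPM. The part of the latter in any line difference was not tested.

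Before actinomycin D in DMSO, MAGEF1 had the highest level per length of the 5 and GEMIN6 the lowest in every line and duration. In Kelly at 3 days the means were 92.4 ± 3.95 CPM per kilobase (SD, n = 2) for MAGEF1, 55.4 ± 0.348 for FEN1, 39.3 ± 1.42 for PRCC, 17 ± 4.0 for ALDH1B1 and 7.91 ± 1.5 for GEMIN6. The middle of this order was not the same everywhere. FEN1 and PRCC were both at 33.8 CPM per kilobase in Kelly at 6 days (SD 1.51 and 0.960), and MAGEF1 and PRCC at 3 days in NGP were within their spread (56.0 ± 3.02 and 55.3 ± 7.34). In NGP, PRCC stood above FEN1.

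MAGEF1 is a MAGE protein that works with the ubiquitin ligase NSMCE1 and directs the iron-sulfur assembly factor MMS19 to degradation. In Kelly at 3 days its 2 DMSO libraries held 152 and 162 CPM at 0 h, 83.4 and 80.8 at 3 h and 54.7 and 44.5 at 6 h, against 170 and 176, 167 and 133, and 97.9 and 113 with STM2457. In Kelly at 6 days DMSO gave 137 and 149, then 66.0 and 77.1, then 31.9 and 28.2 CPM, against 173 and 191, 136 and 127, and 96.0 and 89.9. The treatments lay closer together at 0 h than afterwards. In NGP at 3 days the DMSO pairs were 91.7 and 98.9, 73.0 and 72.1, and 33.7 and 47.7 CPM, against 119 and 124, 121 and 116, and 94.1 and 92. In NGP at 6 days they were 90.6 and 98.3, 55.1 and 49.8, and 20.2 and 25.7 CPM, against 102 and 111, 93.6 and 77.1, and 57.5 and 64.8. At no time did the treatments overlap. The decay difference (log2 change from 0 to 6 h with STM2457 minus that in DMSO, so positive means slower loss with STM2457) was 0.94 ± 0.17 (SE) in Kelly at 3 days and 1.28 ± 0.17 at 6 days. In NGP it was 0.82 ± 0.19 and 1.25 ± 0.20. At 0 h the STM2457 effect on MAGEF1 was smaller than at 3 h, with log2 differences of 0.13 ± 0.12, 0.37 ± 0.12, 0.34 ± 0.13 and 0.18 ± 0.13 in the same order.

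FEN1 is the nuclease that trims flaps from Okazaki fragments and in long-patch base excision repair. In Kelly at 3 days the DMSO libraries held 122 and 121 CPM at 0 h, 81.4 and 102 at 3 h and 56.8 and 74.2 at 6 h, against 180 and 197, 192 and 206, and 175 and 202 with STM2457. In Kelly at 6 days DMSO gave 76.7 and 72.0, then 56.9 and 54.3, then 24.9 and 25.6 CPM, against 139 and 136, 122 and 138, and 143 and 135. FEN1 thus fell in DMSO and stayed level, relative to the typical gene, with STM2457. In NGP at 3 days the DMSO pairs were 96.2 and 105, 75.7 and 76.2, and 60.9 and 55.9 CPM, against 135 and 144, 163 and 163, and 163 and 148. In NGP at 6 days they were 78.6 and 76.2, 55.9 and 52.1, and 41.9 and 46.6 CPM, against 125 and 137, 146 and 134, and 127 and 122. The lowest STM2457 library of a line and duration stood above the highest DMSO library at every time. The log2 change from 0 to 6 h was -0.89 ± 0.12, -1.57 ± 0.13, -0.79 ± 0.11 and -0.85 ± 0.11 in DMSO (Kelly 3 and 6 days, NGP 3 and 6 days). With STM2457 it was 0.01 ± 0.12, 0.01 ± 0.12, 0.13 ± 0.11 and -0.11 ± 0.11. The decay difference was 0.89 ± 0.17, 1.57 ± 0.17, 0.92 ± 0.16 and 0.74 ± 0.16. FEN1 was already higher before actinomycin D, by a log2 difference of 0.62 ± 0.12, 0.90 ± 0.12, 0.46 ± 0.11 and 0.76 ± 0.11.

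GEMIN6 is a subunit of the SMN complex, which loads Sm proteins onto spliceosomal RNAs. It was the member with the lowest counts and the widest spread. In Kelly at 3 days DMSO gave 39.1 and 29.9 CPM at 0 h, 12.2 and 18.2 at 3 h and 10.5 and 9.41 at 6 h, against 42.3 and 42.0, 23.7 and 30.5, and 18.8 and 17.3 with STM2457. In Kelly at 6 days DMSO gave 32.9 and 40.5, then 12.2 and 13.6, then 3.80 and 5.61 CPM, against 36.3 and 40.2, 23.0 and 22.8, and 18.3 and 17.9. At 0 h in this last set the treatments overlapped, the only overlap of the 5 members. In NGP at 3 days the DMSO pairs were 32.2 and 37.6, 16.7 and 18.9, and 11.5 and 16.5 CPM, against 42.4 and 41.0, 38.3 and 37.8, and 23.7 and 39.7. In NGP at 6 days they were 34.0 and 29.5, 25.8 and 20.5, and 23.3 and 13.9 CPM, against 47.6 and 54.3, 37.6 and 48.2, and 32.8 and 25. GEMIN6 there was higher with STM2457 throughout but fell in parallel with DMSO. The decay difference was 0.57 ± 0.38 and 1.88 ± 0.39 in the Kelly sets. For the NGP sets it was 0.90 ± 0.32 at the shorter and -0.05 ± 0.32 at the longer duration. The description of GEMIN6 as lost more slowly therefore did not hold in NGP at 6 days on this scale, where leaving out 1 library gave -0.36 to 0.38. In NGP at 3 days the value was 0.49 without replicate 2 of STM2457 at 6 h, and in Kelly at 3 days it was 0.36 without replicate 1 of DMSO at 0 h. On the ERCC scale the value in NGP at 6 days was 0.38, where the median of all genes was also moved, to 0.41.

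PRCC is a nuclear protein bound to splicing factors, known from its fusion to TFE3 in papillary renal cell carcinoma. In Kelly at 3 days the DMSO libraries read 156 and 164 CPM at 0 h, 128 and 114 at 3 h and 61.5 and 61.1 at 6 h, against 206 and 198, 196 and 186, and 151 and 148 with STM2457. In Kelly at 6 days DMSO gave 140 and 135, then 79.0 and 76.6, then 46.3 and 37.6 CPM, against 165 and 184, 156 and 155, and 92 and 96.9. Both treatments fell, DMSO further. In NGP at 3 days the DMSO pairs were 204 and 246, 187 and 193, and 87.8 and 98.3 CPM, against 368 and 368, 345 and 390, and 267 and 270. In NGP at 6 days they were 192 and 213, 159 and 175, and 62.6 and 77.4 CPM, against 290 and 280, 251 and 263, and 146 and 170. No STM2457 library overlapped DMSO at the same time. The decay difference was 0.95 ± 0.16, 0.82 ± 0.16, 0.80 ± 0.13 and 0.69 ± 0.13, the narrowest range of the 5. The effect at 0 h was 0.33 ± 0.11, 0.36 ± 0.11, 0.70 ± 0.09 and 0.49 ± 0.09.

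ALDH1B1 is a mitochondrial aldehyde dehydrogenase. In Kelly at 3 days DMSO gave 44 and 61.7 CPM at 0 h, 51.5 and 54.3 at 3 h and 35.1 and 26.0 at 6 h, against 92.6 and 79.3, 69.2 and 88.2, and 93.5 and 99.2 with STM2457. In Kelly at 6 days DMSO gave 60.4 and 54.6, then 48.4 and 36.1, then 32.1 and 31.9 CPM, against 80.4 and 82.1, 75.4 and 82.1, and 75.8 and 59.3. The DMSO replicates at 3 days lay far apart at 0 h. In NGP at 3 days the DMSO pairs were 53.1 and 54.0, 32.5 and 41.9, and 25.2 and 20.6 CPM, against 77 and 67.0, 68.5 and 64.5, and 67.8 and 65.1. In NGP at 6 days they were 44.9 and 52.2, 44.1 and 47.9, and 18.5 and 34.3 CPM, against 79.6 and 65.0, 68.8 and 80.6, and 59.5 and 58.8. The treatments did not overlap, and with STM2457 the level at 6 h was 81.8 to 112% of that at 0 h. The decay difference was 0.95 ± 0.23, 0.58 ± 0.23, 1.08 ± 0.25 and 0.61 ± 0.25. It moved in NGP at 6 days to 0.21 without replicate 1 and to 1.11 without replicate 2 of DMSO at 6 h. The effect at 0 h was 0.69 ± 0.16, 0.52 ± 0.16, 0.42 ± 0.17 and 0.58 ± 0.17.

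**Figure D2:**
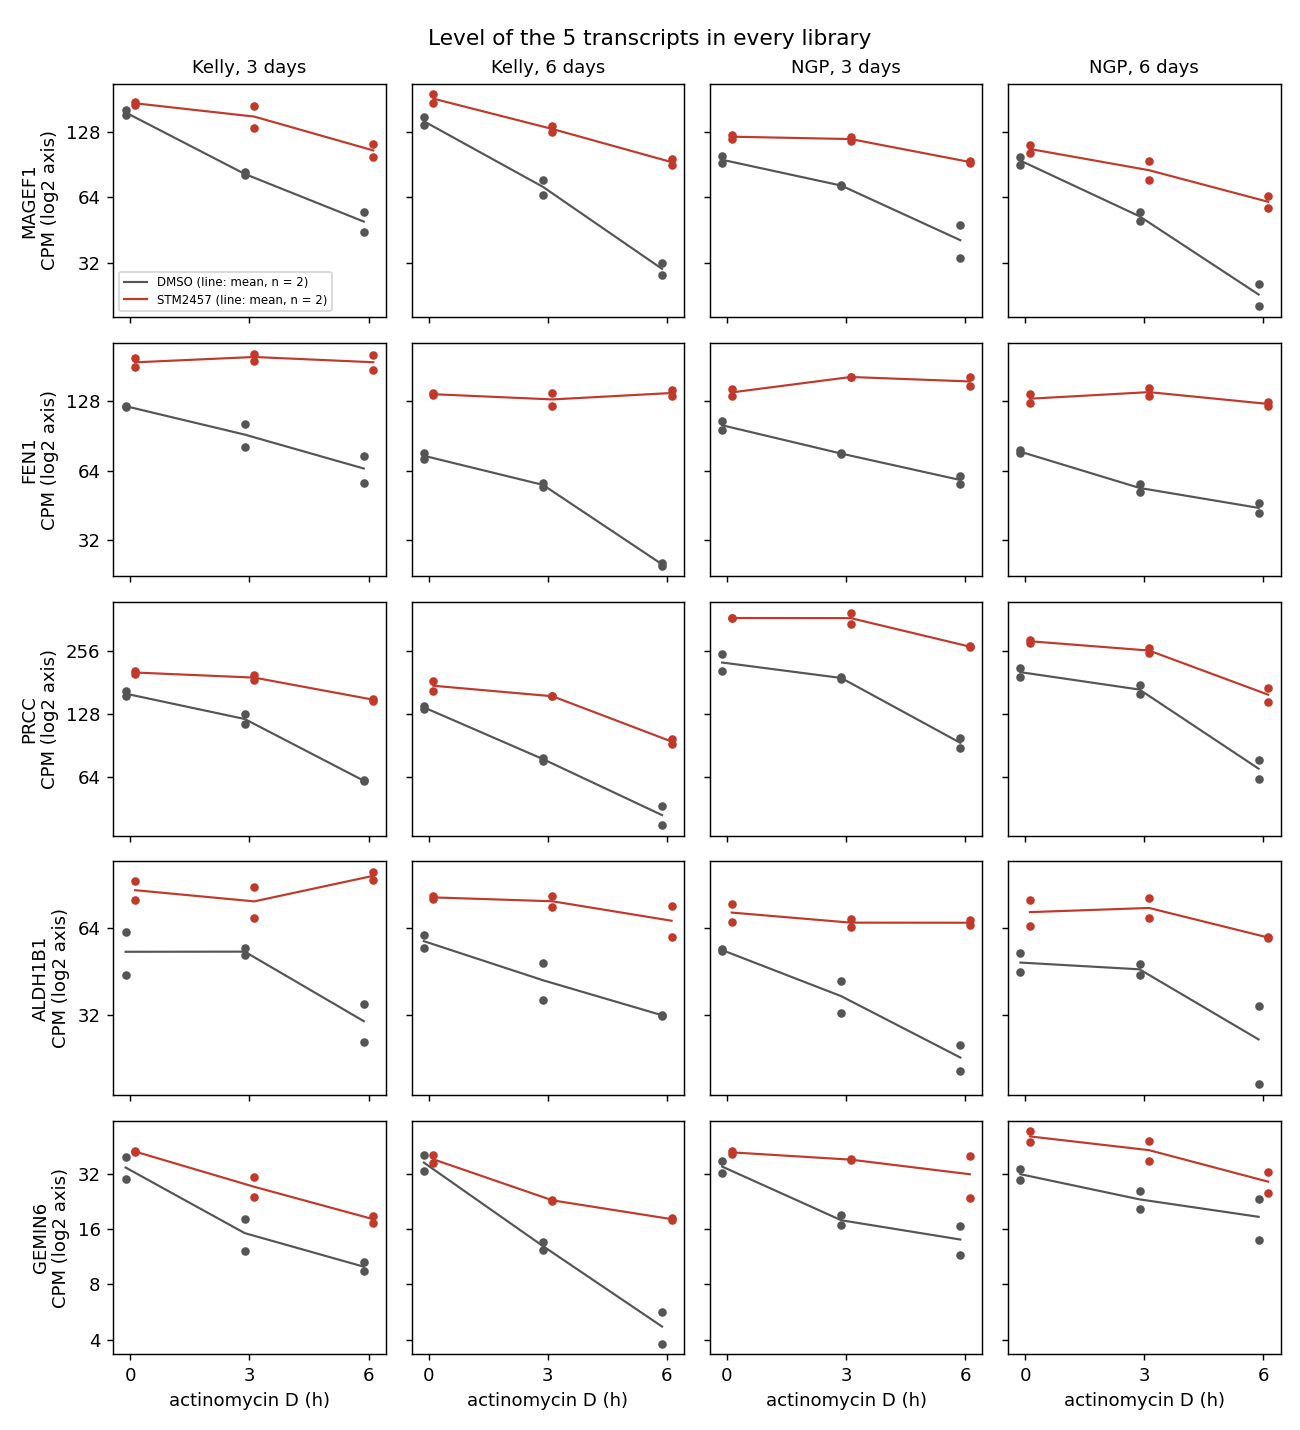
Level of each member (rows, CPM on a log2 axis) against hours of actinomycin D in the 4 sets of line and duration (columns), with 1 point per library and lines through the means of 2 libraries. STM2457 (red) lies above DMSO (grey) at 3 and 6 h in all 20 panels, and FEN1 stays level with STM2457 while it falls in DMSO.

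Across the 20 combinations of member, line and duration, both STM2457 libraries stood above both DMSO libraries in 19 at 0 h, in 20 at 3 h and in 20 at 6 h. Over all tested genes this happened in 20.7%, 21.5%, 23.4% and 25.4% at 0 h (Kelly 3 and 6 days, NGP 3 and 6 days), in 22.5%, 21.4%, 20.8% and 23.5% at 3 h, and in 23.6%, 21.5%, 25.2% and 21.9% at 6 h. The 0 h and 6 h libraries entered the choice of the members, so nothing is read from their counts. At 0 h the log2 differences ran from 0.08 (GEMIN6, Kelly at 6 days) to 0.90 (FEN1, Kelly at 6 days) with a median of 0.44, against a median of 0 to 0.02 over all genes. All 20 were above 0, but with ERCC scaling GEMIN6 in Kelly at 6 days was -0.17, where that scale moved the median of all genes to -0.21. At 6 h they ran from 0.64 to 2.48 with a median of 1.33.

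The decay difference was above 0 in 19 of the 20. In an earlier ranking the condition was a called slower loss in at least 1 set of each line and a positive value in all 4, ordered by the smallest of the 4, and 11 of 14314 genes met it. MAGEF1, FEN1, PRCC and ALDH1B1 were at places 1, 2, 4 and 5 of that order, with smallest values of 0.82, 0.74, 0.69 and 0.58. GEMIN6 did not meet it. MAP1A, a microtubule-associated protein, with 0.42, and the transcription factor SOX12 with 0.40 also met it, at the places next after ALDH1B1, and are not among the members. BYSL, a ribosome assembly factor at the third place with 0.72, was not picked either. Genes called in either direction for the decay difference made up 0.221%, 0.424%, 0.703% and 2.54% of those tested, a share from which nothing is read here because the members were picked on this contrast.

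Between 0 and 3 h the treatment difference grew by a median of 0.45 (log2) over the 20 combinations and between 3 and 6 h by 0.47. FEN1 in NGP gained 0.64 ± 0.16 and 0.62 ± 0.16 in the early interval (3 and 6 days) and 0.28 ± 0.16 and 0.12 ± 0.16 in the late one. In Kelly at 6 days FEN1 gained 0.33 ± 0.17 early and 1.25 ± 0.18 late. ALDH1B1 in Kelly at 3 days gained -0.14 ± 0.23 early and 1.09 ± 0.23 late.

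The 3 h libraries had no part in the 6 h against 0 h contrast, so the effect of STM2457 at 3 h was tested. All 5 members were higher with STM2457 in all 4 sets, 20 of 20 tests, where 2.05%, 3.18%, 3.19% and 4.72% of all tested genes were called higher (Kelly 3 and 6 days, NGP 3 and 6 days). The members are not independent of this result, since a gene that is higher at 0 h or lost more slowly is also higher at 3 h. The calls at 3 h are therefore no separate support for the choice of the members. GEMIN6 did not meet the earlier ranking, so whether the 3 h libraries had a part in its choice is not known. FEN1 rose by log2 differences of 1.10 ± 0.12, 1.23 ± 0.12, 1.10 ± 0.11 and 1.39 ± 0.11, or 2.14-fold to 2.62-fold, with adjusted p from 5.1e-17 to 4.7e-12 (edgeR quasi-likelihood test with Benjamini-Hochberg adjustment). MAGEF1 rose by 0.86 ± 0.12, 0.89 ± 0.12, 0.71 ± 0.13 and 0.71 ± 0.14 (edgeR adjusted p from 1.7e-09 to 8.2e-05). PRCC rose by 0.64 ± 0.11, 1.00 ± 0.11, 0.95 ± 0.09 and 0.63 ± 0.09 (edgeR adjusted p from 4.0e-13 to 7.2e-06). These 3 members, FEN1, MAGEF1 and PRCC, kept all 12 calls whichever library was left out and under every other setting.

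ALDH1B1 and GEMIN6 passed at 3 h with less margin. ALDH1B1 rose by 0.56 ± 0.16, 0.91 ± 0.16, 0.84 ± 0.17 and 0.71 ± 0.17, with edgeR adjusted p from 7.4e-06 to 0.018. Its call in Kelly at 3 days was lost without replicate 1 or replicate 2 of DMSO or replicate 2 of STM2457 at 3 h (values from 0.37 to 0.59), and that in NGP at 6 days without replicate 2 of STM2457 (0.59). GEMIN6 rose by 0.82 ± 0.27, 0.83 ± 0.27, 1.10 ± 0.23 and 0.90 ± 0.22, with edgeR adjusted p from 0.00035 to 0.044. Its call in Kelly at 6 days was lost with any 1 of the 4 libraries left out (0.75 to 0.91), and in Kelly at 3 days with replicate 1 of DMSO or either STM2457 replicate left out (0.56 to 0.98). In NGP at 6 days it was lost without replicate 2 of either treatment (0.70 to 0.74). Without the filter on low counts (0.82) or with limma-voom (0.81) GEMIN6 in Kelly at 3 days missed the threshold, and in Kelly at 6 days it did so with RLE scaling (0.82) and limma-voom (0.83).

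**Figure D3:**
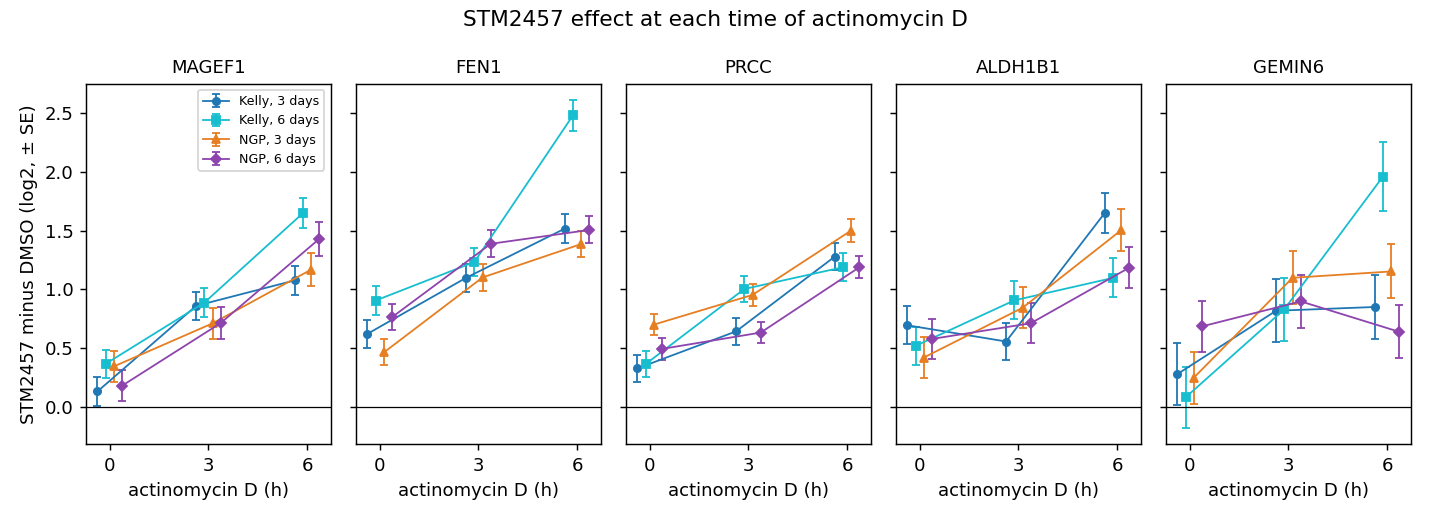
STM2457 minus DMSO on the log2 scale (± SE, n = 2 libraries per group) at 0, 3 and 6 h of actinomycin D, 1 panel per member and 1 line per set of cell line and duration. All 3 h values lie between 0.56 and 1.39, and most lines climb from 0 to 6 h, with GEMIN6 in NGP at 6 days as an exception.

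Whether the 3 h effect differed between lines or durations was tested in the joint fit of the 48 libraries. By edgeR, 0 of 20 such tests passed, with a smallest adjusted p of 0.23, where 0.64% and 1.72% of genes passed for the lines (3 and 6 days) and 2.64% and 1.86% for the durations (Kelly and NGP), and 4 had an unadjusted p under 0.05, all for PRCC. No other tool was run for these differences. For PRCC the effect in NGP minus that in Kelly was 0.29 ± 0.14 at 3 days and -0.38 ± 0.14 at 6 days. The effect averaged over 0, 3 and 6 h also uses the libraries by which the members were picked, so its values are a description. It ran from 0.65 ± 0.15 for GEMIN6 in Kelly at 3 days to 1.54 ± 0.07 for FEN1 in Kelly at 6 days. Its differences between lines or durations passed in 4 of 20 tests, for FEN1 and PRCC alone, where 1.84% and 5.7% of genes passed for the lines and 6.69% and 4.69% for the durations.

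Fitted half-lives gave the loss in hours, from a straight line through log2 level against time in 6 libraries. They are descriptions, since they use the libraries by which the members were picked. On the TMM scale the typical gene has a slope near 0, so the half-lives are relative to it. MAGEF1 had half-lives of 2.66 to 4.81 h in DMSO and 6.21 to 15.5 h with STM2457 over the 4 sets. PRCC had 3.49 to 4.72 h and 6.78 to 13.9 h, and GEMIN6 2.01 to 7.37 h and 4.90 to 13.6 h. FEN1 had 3.85 to 7.63 h in DMSO, while with STM2457 its slopes lay between -0.01 and 0.03 log2 per h, too flat for a half-life to be read. ALDH1B1 had 4.87 to 7.63 h in DMSO, and with STM2457 21.3 to 53.3 h in 3 sets and a slope above 0 in Kelly at 3 days.

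On the ERCC scale, where the median gene had a half-life of 4.75 to 13.3 h in DMSO and 7.18 to 10.7 h with STM2457, every member had a half-life in every set. MAGEF1 moved from 1.70 to 2.92 h in DMSO to 3.85 to 5.60 h with STM2457, and PRCC from 2.00 to 3.31 h to 3.97 to 5.26 h. FEN1 had 2.11 to 4.48 h and 7.15 to 11.3 h, ALDH1B1 2.82 to 4.93 h and 6.39 to 8.95 h, and GEMIN6 1.41 to 3.15 h and 2.91 to 5.32 h. The slope was less steep with STM2457 in 20 of 20 pairs on this scale and in 19 of 20 on the TMM scale, GEMIN6 in NGP at 6 days being the exception (7.37 h in DMSO and 7.25 h with STM2457). On the ERCC scale the median gene slowed too in Kelly at 6 days (4.75 h in DMSO and 10.7 h with STM2457). It did so in NGP at 3 days (6.95 and 8.94 h) and 6 days (5.39 and 8.90 h), but not in Kelly at 3 days (13.3 and 7.18 h). GEMIN6 in NGP at 6 days had 3.15 and 4.04 h on that scale. In DMSO the members were short-lived next to the median gene. That loss in DMSO is part of the contrast by which the members were picked. On the log2 scale from 0 to 6 h, the loss of MAGEF1 in DMSO lay at the 5.73 to 16.0 percentile of all genes, where a low percentile is a fast loss. FEN1 lay at 9.67 to 24.3 in DMSO and at 46.0 to 56.9 with STM2457, and ALDH1B1 at 16.1 to 23.8 and 32.2 to 54.5. MAGEF1, PRCC and GEMIN6 stayed among the faster-lost genes with STM2457, at no more than the 31.3 percentile.

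**Figure D4:**
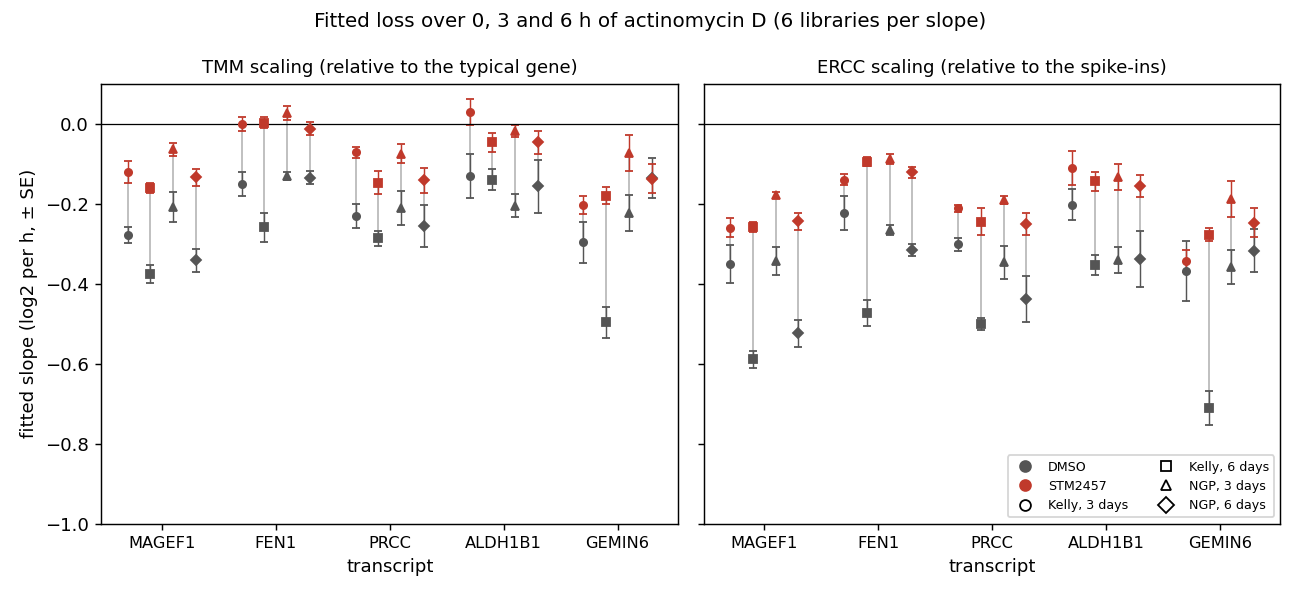
Fitted slope of log2 level on hours of actinomycin D (± SE, 6 libraries each) for each member and set, DMSO in grey and STM2457 in red, joined by a line, on the TMM scale (left) and the ERCC scale (right). The STM2457 slope is nearer 0 in 19 of 20 pairs on the left and 20 of 20 on the right. The slope of the median gene, not drawn, also differed between treatments on the ERCC scale.

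The lines and the time in culture were compared on averages over 0, 3 and 6 h. These averages use the 0 h and 6 h libraries by which the members were picked, and a difference in loss during actinomycin D enters them too. The calls below carry that limit. NGP minus Kelly was 0.75 ± 0.03 for PRCC and 0.55 ± 0.07 for GEMIN6, and -0.47 ± 0.04 for MAGEF1, -0.23 ± 0.05 for ALDH1B1 and -0.08 ± 0.03 for FEN1. All 5 were called (edgeR adjusted p of 0.024 for FEN1 and at most 8.5e-05 for the others), as were 62.2% of all genes tested. Before actinomycin D in DMSO, GEMIN6 was not clearly apart between the lines, at 7.91 ± 1.5 and 8.41 ± 1.2 CPM per kilobase in Kelly (3 and 6 days) and 8.00 ± 0.89 and 7.27 ± 0.73 in NGP. ALDH1B1 at 0 h in DMSO had 17 ± 4.0 in Kelly and 17.2 ± 0.21 in NGP at 3 days, within the spread. At 6 days ALDH1B1 had 18.4 ± 1.32 in Kelly and 15.6 ± 1.65 in NGP. FEN1 at 0 h was higher in Kelly at 3 days (55.4 ± 0.348 against 45.8 ± 2.91) but not at 6 days (33.8 against 35.2). MAGEF1 and PRCC at 0 h kept the direction of the averaged difference at both durations. Of the averaged line differences, 3 of 5 were called with ERCC scaling, where FEN1 changed sign (0.03) and ALDH1B1 missed the threshold (-0.11). In DMSO, the averaged level at 6 days was lower than at 3 days for FEN1, by -0.96 ± 0.07 in Kelly and -0.45 ± 0.07 in NGP. It was also lower for MAGEF1 (-0.37 ± 0.07 and -0.46 ± 0.08) and PRCC (-0.49 ± 0.07 and -0.28 ± 0.05), with edgeR adjusted p of at most 1.8e-05 for these 3 members. At 0 h alone MAGEF1 in NGP had 56.0 ± 3.02 CPM per kilobase at 3 days and 55.5 ± 3.19 at 6 days, within the spread. PRCC in NGP also overlapped at 0 h, with 55.3 ± 7.34 and 49.8 ± 3.64. In Kelly at 0 h MAGEF1 had 92.4 ± 3.95 and 84.2 ± 4.97, and PRCC 39.3 ± 1.42 and 33.8 ± 0.960. FEN1 at 0 h was lower at 6 days in both lines, by the values above. The averaged level of GEMIN6 was lower at 6 days in Kelly, at -0.43 ± 0.16 (edgeR adjusted p of 0.031). That call was lost in 6 of 12 refits without 1 library and with library size, ERCC or limma-voom. At 0 h alone GEMIN6 in Kelly was within its spread and no lower at 6 days (8.41 against 7.91 CPM per kilobase). Its value in NGP, 0.20 ± 0.13, and those of ALDH1B1, -0.07 ± 0.09 and 0.09 ± 0.10, did not pass. In all, 7 of 10 tests were called, where 25.6% of genes in Kelly and 30.7% in NGP were.

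The members' patterns over the 48 libraries, after the mean of each line was removed, were alike. Pearson's r between members ran from 0.71 to 0.95 with a median of 0.83 over 10 pairs, as a description, since all share the libraries and the contrast they were picked on. Among 8460 other genes, the members left out, with at least 10 CPM on average in each line, the closest to MAGEF1 were the nuclear pore gene NUP62 (r = 0.92) and BYSL (0.91). Closest to FEN1 were the splicing factor HNRNPF (0.96) and GPATCH4 (0.89). PRCC was closest to VIRMA (0.93), a subunit of the m6A writer complex, and to the histone chaperone DAXX (0.91). ALDH1B1 was closest to the telomere protein TERF2 (0.87) and FLAD1 (0.86), and GEMIN6 to TAF7 (0.88), a subunit of TFIID, and the pseudokinase TRIB2 (0.88).

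Partners and relatives of the members were read for the decay difference, where 4 of 222 tests passed against the 0.221% to 2.54% of all genes given above. Of those 222 tests over 5 lists without the members (4 sets each), 3 were called slower and 1 faster. They were GEMIN5, the RNA-binding SMN complex subunit, in NGP at 6 days (0.57 ± 0.14, edgeR adjusted p of 0.011), the exonuclease EXO1 there (0.59 ± 0.15, 0.012), MMS19 there in the faster direction (-0.68 ± 0.20, 0.040) and the folate enzyme ALDH1L2 there (0.82 ± 0.19, 0.0036). In the other sets (Kelly 3 and 6 days, NGP 3 days) none of these genes was called. ALDH1L2 was at -0.20, -0.65 and -0.45, and MMS19 at -0.02, 0.33 and -0.04. EXO1 was at 0.09, -0.20 and 0.13, and GEMIN5 at 0.20, 0.60 and 0.31. Beside FEN1, the flap removal list had 1 called slower of 68 tests. The SMN complex beside GEMIN6 had 1 of 36, the aldehyde dehydrogenases beside ALDH1B1 1 of 60, the MAGE list beside MAGEF1 0 slower and 1 faster of 38, and the PRCC partners 0 of 20. List medians ran from -0.21 to 0.21, against -0.02 to 0.02 over all genes.

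At 3 h the same lists had 9 tests called higher and 15 lower of 222, where 5.83%, 5.2%, 7.93% and 8.64% of all genes passed in either direction (Kelly 3 and 6 days, NGP 3 and 6 days). For the flap removal list 5 were higher and 2 lower of 68, with LIG1, PCNA, BLM and EXO1 higher in Kelly at 6 days (0.54 ± 0.10, 0.54 ± 0.11, 0.60 ± 0.19 and 0.70 ± 0.12 by edgeR) and RPA1 in NGP at 6 days (0.29 ± 0.10). LIG1 was lower in Kelly at 3 days (-0.31 ± 0.10, edgeR adjusted p of 0.031), and the repair scaffold XRCC1 was lower in NGP at 6 days (-0.48 ± 0.15, edgeR adjusted p of 0.034). The aldehyde dehydrogenases had 0 higher and 7 lower of 60, with genes repeated over the sets. The lower calls were ALDH1L2 (Kelly 3 and 6 days, NGP 6 days), ALDH2 (6 days in both lines), ALDH7A1 (Kelly 3 days) and ALDH9A1 (NGP 3 days). The SMN complex had 3 higher and 4 lower of 36. In that complex the helicase DDX20 was higher at 3 days in both lines (0.88 ± 0.21 in Kelly and 0.76 ± 0.23 in NGP), while STRAP was lower (-0.59 ± 0.09 and -0.53 ± 0.09).

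For the other genes, calls of the decay difference were also counted by exon number, with no test between classes. Of 396 single-exon genes without the members, 9, 0, 13 and 28 were called slower with STM2457 in the 4 sets and 1, 17, 6 and 4 faster. Of 7495 genes with 11 or more merged exons, 6, 9, 9 and 80 were called slower and 1, 5, 19 and 101 faster. The median decay difference of single-exon genes was 0.19, -0.05, 0.18 and 0.22, so that Kelly at 6 days went the other way. MAGEF1, the single-exon member, was at 1.28 in that set. Genes with 2 merged exons had medians of 0.16, -0.03, 0.15 and 0.10. Those with 3 to 5 had 0.07, 0.01, 0.08 and 0.04, and those with 11 or more -0.02, -0.02, -0.04 and -0.04. Single-exon genes also fell more from 0 to 6 h in DMSO (median log2 change of -1.28, -0.94, -1.11 and -1.08). Genes with 11 or more were at 0.11, 0.12, 0.10 and 0.03. The part of this loss in the decay difference was not tested.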

How the data were processed

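The members and the gene lists were chosen with earlier results of these data known. Each file holds unnormalized counts of fragments per gene as deposited, made by the authors using featureCounts 1.5.3 on the protein-coding genes of GENCODE 33 and 92 ERCC sequences, per the file headers. HISAT2 2.1.0, Trimmomatic 0.36 and GRCh38 (hg38) are named in the submitters' processing notes, with no settings. The header names no strand, multi-mapping or overlap option.

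Counts were fitted with edgeR 4.0.16 (R 4.3.3), quasi-likelihood with TMM scaling, after a filter by group (minimum count 10, total 15): 24 libraries and 16759 genes in Kelly, 24 and 14661 in NGP, and 48 and 17343 jointly. P-values were Benjamini-Hochberg adjusted over all genes of a comparison, with a threshold of 0.05. SE is the absolute log2 difference over the square root of F. Printed CPM use the joint scaling. Half-lives are -1 over the least-squares slope. Kelly libraries held 13807701 to 19774227 counted fragments, NGP libraries 11139550 to 21942238. Replicates differed beyond counting noise (chi-square per gene of 6.73 or more). On simulated counts of the 3 h effect at 3 days, 48% of 2-fold and 84% of 4-fold changes were recovered in Kelly (15834 genes), and 64% and 85% in NGP (14046 genes). Apart from the added changes, each simulated gene had the same mean in all groups, and its spread came from the trend over genes. Recovery in the real fits may therefore differ. Named genes were the members, the next 2 by the choosing rule, the 2 most alike each member, and up to 3 called per list, by largest decay difference. BYSL also ranks among the members by the rule. List genes given at 3 h alone (LIG1, PCNA, BLM, RPA1, XRCC1, DDX20, STRAP, ALDH2, ALDH7A1 and ALDH9A1) were picked after their values were seen. Alternatives were RLE, library size and ERCC scaling, no filter, DESeq2 1.42.0, limma-voom (limma 3.58.1), a replicate block, the same duration only, and each library left out.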

Additional observations from a re-analysis of the deposited data

Results flagged for a closer look

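Of 40 tests of whether the STM2457 effect on a member differed between lines or durations, 4 passed, all on the effect averaged over 0, 3 and 6 h (edgeR quasi-likelihood test in the joint fit, Benjamini-Hochberg adjusted over all genes of a contrast). These contrasts were added after the data had been seen, the average uses the 0 h and 6 h libraries by which the members were picked, and 1.84% and 5.7% of all genes passed for the line difference at 3 and 6 days, and 6.69% and 4.69% for the duration difference in Kelly and NGP.

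PRCC had a larger averaged effect in NGP than in Kelly at 3 days, by 0.30 ± 0.08 (log2, SE, edgeR adjusted p of 0.028), from 0.75 in Kelly and 1.05 in NGP. In NGP its effect was smaller at 6 days than at 3 days, by a difference of -0.30 ± 0.08 (edgeR adjusted p of 0.015). FEN1 had a larger averaged effect at 6 than at 3 days in Kelly, by 0.43 ± 0.09 (edgeR adjusted p of 0.00074). Its line difference at 6 days was -0.31 ± 0.09, NGP being lower (edgeR adjusted p of 0.031). At 3 h alone these 2 differences were 0.11 ± 0.16 and 0.15 ± 0.16, and neither passed. At 6 h, a time used in the picking, the FEN1 effect in Kelly was 1.52 at 3 days and 2.48 at 6 days. The averaged calls for FEN1 are therefore not separate from the contrast by which it was picked. In Kelly the control level of FEN1 also differed with duration, at 122 and 121 CPM at 3 days and 76.7 and 72.0 CPM at 6 days before actinomycin D. The part of that level in the averaged difference was not tested.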

How the results depend on the processing

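With groups of 2, each SE rests on the spread shared by the 12 groups of a line. The 20 calls at 3 h became 19 with RLE scaling, 19 without the filter, 18 with limma-voom, and 18 to 20 over 16 refits without 1 library. Of the 5 line differences, 3 were called with ERCC scaling, where FEN1 was 0.035 instead of -0.08. The 7 calls for DMSO culture were 6 with library size only, ERCC scaling or limma-voom, and 6 to 7 over 24 refits without 1 library. With the replicate number as a block the counts were 20 at 3 h, 5 between lines and 7 for DMSO culture. Replicate numbers did not pair the samples (correlations of deviations between groups of -0.04 to 0.06 in Kelly and -0.03 to 0.12 in NGP). The sign of ALDH1B1 in DMSO culture, never called, turned in Kelly with library size (0.016) and ERCC scaling (0.0015), and without replicate 2 of the 0 h (0.042) or replicate 1 of the 6 h (0.00953) DMSO libraries at 3 days (range without 1 library, -0.14 to 0.042). In NGP it turned with ERCC scaling (-0.20) and without replicate 2 of the 6 h DMSO libraries at 6 days (range without 1 library, -0.075 to 0.22), and GEMIN6 turned there with ERCC scaling (-0.0819). The cause was not tested.

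The decay difference was above 0 in 19 of 20, in 19 to 20 over 32 refits without 1 library and in 20 with ERCC scaling. Without 1 library the values of 4 of the 20 moved by over 1.5 times, as given with ALDH1B1 and GEMIN6. The 0 h effect was above 0 in 20, in 19 with ERCC scaling and in 19 to 20 over 16 refits without 1 library. On the TMM scale the slope was less steep with STM2457 in 19 pairs from 0 and 3 h alone and in 19 from 3 and 6 h alone. On the ERCC scale these counts were 19 and 17 of 20. ERCC scaling put the median decay difference of all genes at -0.37, 0.70, 0.14 and 0.41 (Kelly 3 and 6 days, NGP 3 and 6 days), and the members moved with it. When the spike-ins were added is not given in the sources used here. Leaving out each library was not run for the line difference, whose joint fit was too large.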
